A study of Mus musculus with 6 samples.

Results

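The milk protein genes encode the proteins that the mammary epithelium secretes into milk or displays on milk fat droplets. The members followed here were *Csn1s1*, *Csn1s2a*, *Csn2*, *Csn3*, *Wap*, *Lalba*, *Mfge8* and *Muc1*. They were chosen by gene symbol and make up 8 of the 18820 mouse genes that had an array probe set of their own. Expression was measured in EpRas cells, a mouse mammary tumor cell line of BALB/c background derived from EpH4 mammary epithelial cells by overexpression of Ha-Ras. The oncogene is carried by both groups, so that neither is normal epithelium. Long-term EMT cells had been kept for 14 days with 2 ng/ml of TGF-β1, and control cells had been left without TGF-β1. Both groups grew in DMEM/F12 medium with 10% fetal calf serum, and the growth protocol names no added prolactin or glucocorticoid. Each group had 3 arrays (MoGene-1_1-st-v1), each probed with 150 ng of RNA. The RNA came from triplicate wells, and each p-value therefore reflects only well-to-well spread, which may be technical. The values are the log2 RMA values of the authors, in which 1 unit is a doubling of signal. Each probe set has its own brightness, so that levels of different genes were not compared, except with a background level set from other probe sets. That comparison is therefore approximate.

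Milk proteins fall into a few roles. The caseins *Csn1s1* (αs1-casein), *Csn1s2a* (αs2-casein) and *Csn2* (β-casein) carry calcium phosphate in micelles, and *Csn3* (κ-casein) coats the micelle surface and keeps it in suspension. *Wap* and *Lalba* encode whey proteins, whey acidic protein and α-lactalbumin, and α-lactalbumin is the regulatory subunit of the enzyme that makes lactose. *Mfge8* (lactadherin) and *Muc1* (a mucin of the apical membrane) sit on the membrane of the milk fat globule and are also made outside lactation. In the mammary gland, prolactin acts through its receptor, Jak2 and Stat5, together with glucocorticoids, to switch on casein and whey protein genes in differentiated luminal cells.

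Control replicate 1 stood apart from the other controls. In 581 of the 18820 genes, or 3.09%, its value was more than 1 log2 unit above the mean of control replicates 2 and 3. *Csn3* and *Muc1* were among these genes, with differences of 1.85 and 2.62 log2 units, and the other 6 milk protein genes were not. Therefore, differences of *Csn3* and *Muc1* are also given without this array. In *Csn3* the controls were at 6.69, 5.52 and 4.17, so that control replicate 3 was low as well. The fits of *Csn3* without each array are given below. The level of genes that mammary cells do not use was set from 1006 probe sets of olfactory receptors. The 95th percentile of their means, 4.48 on the log2 scale, is called the background level here. The mammary epithelial label was checked on keratins. *Krt8* and *Krt18*, keratins of luminal cells, lay between 12.70 and 12.88 and between 12.54 and 12.59 in long-term EMT cells, against 12.78 to 12.81 and 12.46 to 12.74 in control cells. *Krt19*, another keratin of luminal cells, was much lower, at 7.07, 5.15 and 5.01 in long-term EMT cells, against 5.25, 5.07 and 4.98 in control cells. *Krt14*, a keratin of basal cells, had 8.04, 7.04 and 7.27 in long-term EMT cells, against 9.77, 9.44 and 9.81 in control cells. It fell by 2.22 on the log2 scale (limma adjusted p = 0.0144), but did not pass without long-term EMT replicate 2 or 3 or control replicate 2 (0.0582 to 0.0773). *Krt14* was the 1 of 7 basal and myoepithelial markers that passed, against 2.96% of all genes. The median log2 fold change of these 7 markers was 0.04. *Krt5*, another basal keratin, lay between 4.61 and 4.88 in long-term EMT cells and between 4.53 and 4.70 in control cells. The adhesion genes *Cdh1* and *Epcam* fell by 5.09 and 3.85 on the log2 scale (limma adjusted p = 0.00195 and 0.00922, with standard errors, SE, of 0.31 and 0.40). They were the 2 of 7 luminal markers that passed, against 2.96% of all genes. The median log2 fold change of these 7 luminal markers was -0.09. *Cdh1* had 4.78, 4.31 and 4.34 in long-term EMT cells, about the background level, and passed whichever array was left out, and *Epcam* did not pass without long-term EMT replicate 2 or 3 or control replicate 2 (adjusted p between 0.0520 and 0.0610). Of the 6 macrophage, 6 fibroblast, 4 adipocyte and 5 endothelial marker genes measured, none passed the test. *Ptprc*, *Adipoq* and *Pecam1* lay between 3.83 and 4.83 in long-term EMT cells and between 3.83 and 4.84 in control cells. Several other markers of these lists were well above background, and *Dcn* was so only on control replicates 1 and 2. The macrophage marker *Cd68* lay between 8.48 and 9.24 in long-term EMT cells and between 8.22 and 9.23 in control cells, and *Cd14* between 8.14 and 8.80 in long-term EMT cells and between 8.68 and 10.55 in control cells. Of the fibroblast markers, *Pdgfra* (7.06 to 7.66 in long-term EMT cells, 7.78 to 8.96 in control cells), *Pdgfrb* (7.96 to 9.07 in long-term EMT cells, 9.55 to 10.29 in control cells) and *Dcn* (4.11 to 4.44 in long-term EMT cells, 4.50 to 7.68 in control cells) had all long-term EMT arrays below the control arrays, and *Col1a1* (7.06 to 7.50 in long-term EMT cells, 6.44 to 6.84 in control cells) had them above. The mean over the 6 fibroblast markers lay between 5.97 and 6.19 in long-term EMT cells and between 6.35 and 7.05 in control cells, and the part of these cell type markers in the results was not tested.

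*Csn3* rose in long-term EMT cells, and it was the 1 milk protein gene of 8 that passed the test. A gene passed when its fold exceeded 1.5 and its limma p, adjusted by Benjamini-Hochberg over all 35556 probe sets, was below 0.05. Of all probe sets, 0.993% passed as higher, 0.928% as lower and 1.92% in either direction. *Csn3* had log2 values of 9.04, 9.17 and 8.73 on the 3 long-term EMT arrays, against 6.69, 5.52 and 4.17 on the 3 control arrays. The long-term EMT arrays were all above the control arrays and lay close together, whereas the control arrays were spread widely, and control replicate 3 was under the background level. The mean was 8.98 ± 0.23 (SD, n = 3) in long-term EMT cells and 5.46 ± 1.26 (SD, n = 3) in control cells. This was a log2 fold change of 3.52 (SE 0.59, 95% confidence interval 2.09 to 4.95, limma adjusted p = 0.0416), or 11.5-fold. The log2 of the ratio of unlogged means was smaller, at 3.19. A log2 fold change of 3.52 or larger was seen in 6 of 18820 genes (0.0319%), *Csn3* included. Over the 6 arrays *Csn3* spanned 5.00 log2 units, and 39 genes (0.207%), *Csn3* included, spanned at least as much. The standard error was larger than that of 99.3% of genes. It assumes the same spread in both groups and draws on the spread of other probe sets. From the arrays of *Csn3* alone, as in the methods' t-test, it was 0.74. Because whole wells were measured, more cells with *Csn3* transcript and more transcript per cell cannot be told apart, and this holds for every gene below.

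The other caseins did not pass the test, and all of their arrays lay below the background level. *Csn1s1* had log2 values of 3.31, 3.33 and 3.19 in long-term EMT cells, against 3.40, 3.20 and 3.21 in control cells. *Csn1s2a* had 3.42, 3.56 and 3.31 in long-term EMT cells, against 3.62, 3.34 and 3.48 in control cells. *Csn2* had 3.76, 3.82 and 3.88 in long-term EMT cells, against 3.84, 3.76 and 3.75 in control cells. For all 3 genes the groups overlapped, and no fold of expression is given because neither group was above background. The differences in log2 signal were 0.01, -0.05 and 0.04, with SE of 0.09, 0.11 and 0.08 and limma adjusted p of 0.988, 0.910 and 0.903.

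**Figure D1:**
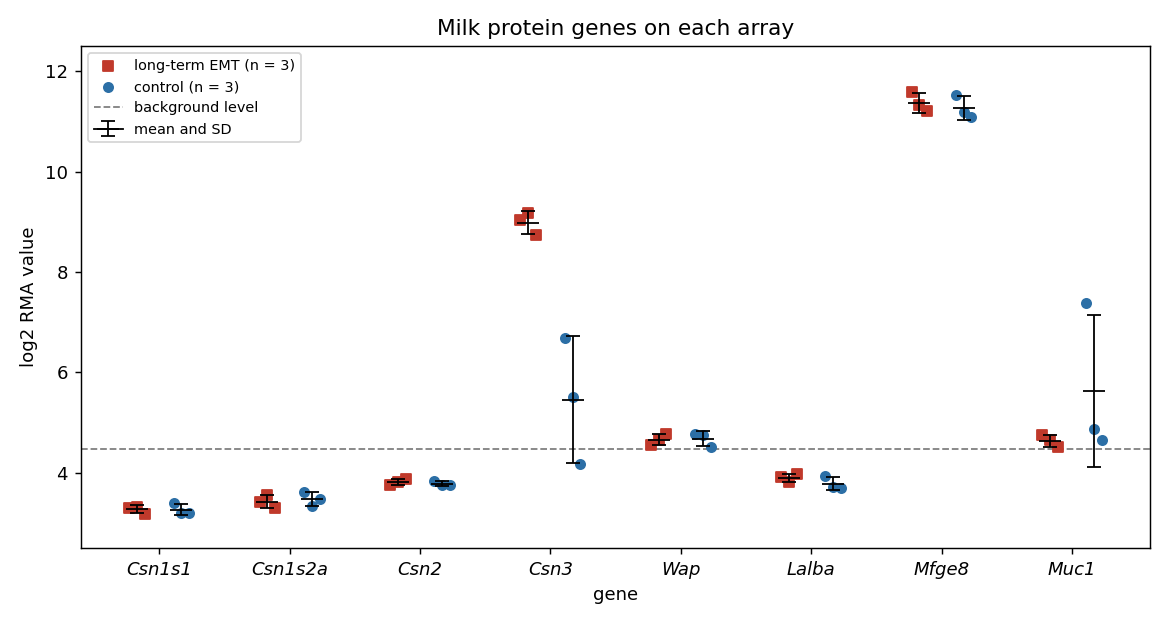
Log2 RMA value of every array for the 8 milk protein genes in long-term EMT cells (squares, n = 3) and control cells (circles, n = 3), group means and SD in black, and the background level of 4.48 as a dashed line. *Csn3* is at 8.73 to 9.17 in long-term EMT cells and at 4.17 to 6.69 in control cells, and *Muc1* stands out on 1 control array at 7.38.

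The promoters of *Csn1s1*, *Csn1s2a* and *Csn2* are shown because these 3 genes stayed below background beside *Csn3* and because Stat5 is the known activator of casein genes. RefSeq promoter windows (GRCm38.p6), from 250 bases before to 50 bases after the gene start, were matched by symbol for 7 of the 8 members, all but *Csn3*. The Stat5 motif TTCNNNGAA, which reads the same on both strands, is set in capitals.
*Csn1s1* (chr5:87665958-87666257, plus strand): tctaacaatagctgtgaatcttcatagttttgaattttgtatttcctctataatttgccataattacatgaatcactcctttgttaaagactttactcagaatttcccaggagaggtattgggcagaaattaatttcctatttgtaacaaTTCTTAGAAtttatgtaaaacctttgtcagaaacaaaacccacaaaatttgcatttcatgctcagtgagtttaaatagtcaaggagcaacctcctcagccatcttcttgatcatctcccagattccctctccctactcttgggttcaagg
*Csn1s2a* (chr5:87774200-87774499, plus strand): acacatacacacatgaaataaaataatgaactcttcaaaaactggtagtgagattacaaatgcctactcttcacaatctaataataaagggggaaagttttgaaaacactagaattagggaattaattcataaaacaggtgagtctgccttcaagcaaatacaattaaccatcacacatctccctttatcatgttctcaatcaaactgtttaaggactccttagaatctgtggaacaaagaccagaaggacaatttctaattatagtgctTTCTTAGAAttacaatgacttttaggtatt
*Csn2* (chr5:87699376-87699675, minus strand): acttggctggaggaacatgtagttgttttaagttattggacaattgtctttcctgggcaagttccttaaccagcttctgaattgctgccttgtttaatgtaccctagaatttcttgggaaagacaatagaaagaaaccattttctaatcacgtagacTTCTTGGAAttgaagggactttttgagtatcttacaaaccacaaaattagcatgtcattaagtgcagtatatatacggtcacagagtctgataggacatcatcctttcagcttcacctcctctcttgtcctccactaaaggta
Each of these 3 windows held 1 match, beginning at position -100 in *Csn1s1*, at position 21 in *Csn1s2a* and at position -93 in *Csn2*, counted from the gene start. The windows of *Wap*, *Lalba*, *Mfge8* and *Muc1* held none. Of all 32841 promoter windows of this length, 8.30% held the motif. A match is a description of the letters and not a measure of binding.

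The whey protein genes did not pass the test. *Wap* had log2 values of 4.56, 4.66 and 4.77 in long-term EMT cells, against 4.78, 4.75 and 4.52 in control cells, just above the background level on every array. The mean of *Wap* in long-term EMT cells was reached by 3.48% of the olfactory receptor probe sets, and that in control cells by 3.28%. *Lalba* had 3.91, 3.82 and 3.98 in long-term EMT cells, against 3.94, 3.72 and 3.70 in control cells, all below the background level. The groups overlapped for both genes. The log2 fold change was -0.02 for *Wap* (SE 0.10, 95% confidence interval -0.27 to 0.23, limma adjusted p = 0.967), and the signal of *Lalba* differed by 0.12 log2 units (SE 0.10, adjusted p = 0.710).

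*Mfge8* was well above the background level in both groups, with log2 values of 11.59, 11.32 and 11.20 in long-term EMT cells, against 11.53, 11.19 and 11.08 in control cells. The groups overlapped, and the difference was smaller than the spread within either group. The log2 fold change was 0.10 (SE 0.16, limma adjusted p = 0.858), with a 95% confidence interval of -0.27 to 0.48. Thus, the interval for *Mfge8* did not reach a 1.5-fold change in either direction, without adjustment for the number of genes.

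*Muc1* did not pass the test, and its difference rested on 1 array. It had log2 values of 4.75, 4.66 and 4.51 in long-term EMT cells, against 7.38, 4.87 and 4.65 in control cells. Control replicate 1 was high and the other 5 arrays lay close to the background level, so that the groups overlapped. The log2 fold change was -0.99 (SE 0.70, 95% confidence interval -2.69 to 0.70, limma adjusted p = 0.646), and without control replicate 1 it was -0.12 (adjusted p = 0.701). The standard error of *Muc1* was larger than that of 99.5% of genes. Some markers of luminal cells also varied between controls. The mean log2 value of 7 luminal markers was highest on control replicate 1, at 10.34, and lowest on control replicate 3, at 9.59. It lay between 8.18 and 8.83 on the long-term EMT arrays. In 3 of the 7, *Cdh1*, *Epcam* and *Elf3*, control replicate 1 was more than 1 log2 unit above the mean of the other controls. This was so for 3.09% of all genes. In *Krt8*, *Krt18*, *Krt19* and *Cd24a* control replicate 1 differed from that mean by 0.025, 0.27, 0.225 and -0.1. The part of this variation in the *Muc1* value was not tested.

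**Figure D2:**
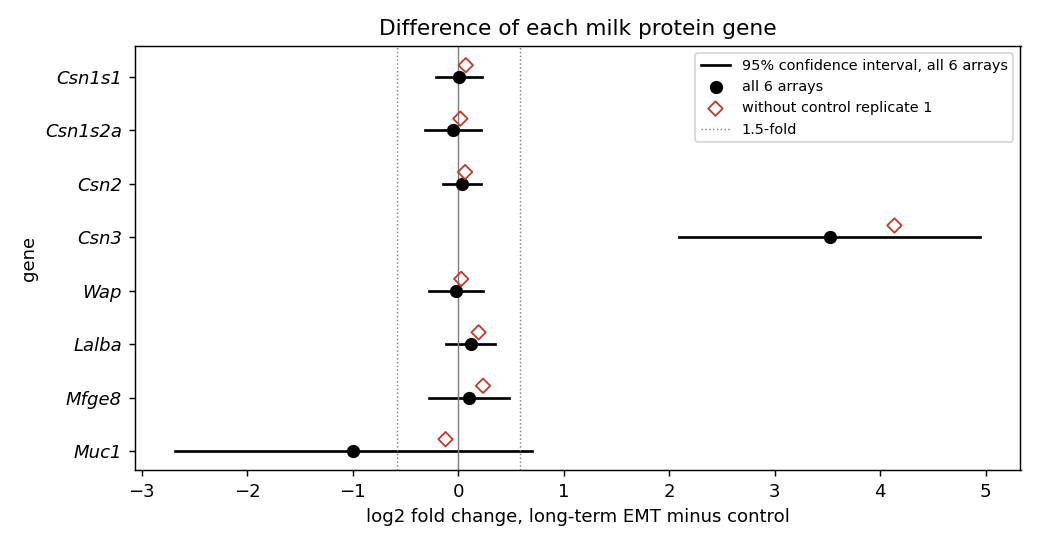
Log2 fold change of each milk protein gene, long-term EMT minus control, with its 95% confidence interval over all 6 arrays (black) and the value without control replicate 1 (diamonds). Dotted lines mark a 1.5-fold change. The interval of *Csn3* runs from 2.09 to 4.95, that of *Muc1* from -2.69 to 0.70, and the other 6 intervals lie between the dotted lines.

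Over the 8 milk protein genes the median log2 fold change was 0.02, against 0.02 over all 18820 genes. *Csn3* was the 1 member of 8 whose groups did not overlap, with the long-term EMT arrays above. Among all probe sets, 19.2% did not overlap between groups, 10.5% with long-term EMT above and 8.68% with long-term EMT below, and over genes with 1 probe set each the share was 24.1%. On all 6 arrays, 4 of the 8 members lay at or under the background level, which was so for 25.9% of all genes.

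Each array was left out in turn (leave-one-out fits). The test of *Csn3* depended on single arrays, while its rise kept its direction in every leave-one-out fit. The log2 fold change was 4.14 without control replicate 1 (limma adjusted p = 0.00852) and 2.88 without control replicate 3 (adjusted p = 0.0290), and in both fits the gene passed. Without control replicate 2 it was 3.55 (adjusted p = 0.149), and without long-term EMT replicates 1, 2 and 3 it was 3.49, 3.43 and 3.65 (adjusted p = 0.152, 0.180 and 0.146). In these 4 fits *Csn3* did not pass.

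**Figure D3:**
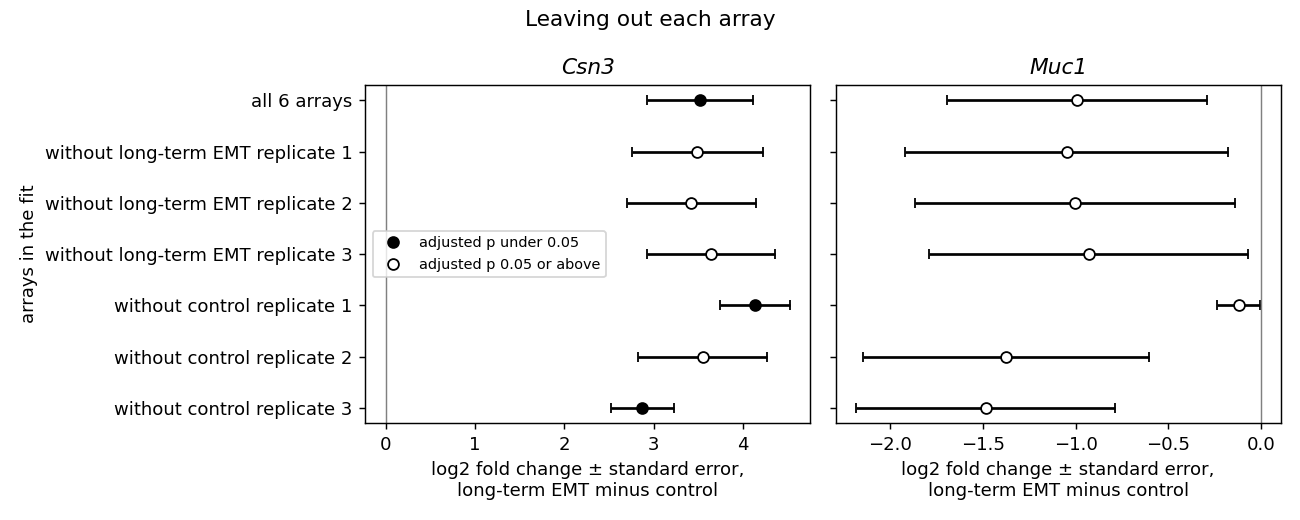
Log2 fold change, long-term EMT minus control, with its standard error for *Csn3* (left) and *Muc1* (right) when all 6 arrays were fitted and when each array was left out. Filled points have an adjusted p under 0.05. *Csn3* ranges from 2.88 to 4.14 and passes in 2 of 6 such fits, and *Muc1* moves to -0.12 without control replicate 1. Where *Csn3* did not pass, at most 162 probe sets passed as higher, against 353 with all arrays.

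The casein genes neighbour each other on chromosome 5, in the order *Csn1s1*, *Csn2*, *Csn1s2a*, *Csn1s2b* and *Csn3*, among genes of the liver, salivary gland and enamel. The 32 genes that RefSeq lists from 10 genes before *Csn1s1* to 10 genes after *Csn3* were examined, and 18 of them had a probe set of their own. Of these, *Csn3* rose, none fell, and 17 did not pass (over all genes, 1.47% rose and 1.49% fell), with 16 of the 18 at or under the background level on all arrays. *Csn1s2b*, the other αs2-like casein gene of the mouse, had log2 values of 3.49, 3.50 and 3.25 in long-term EMT cells, against 3.40, 3.42 and 3.38 in control cells. *Odam*, which encodes a secreted protein of the enamel organ and lies between *Csn1s2b* and *Csn3*, had a mean of 3.57 in long-term EMT cells and 3.52 in control cells. *Cabs1*, a neighbour on the far side of *Csn3*, had a mean of 4.06 in long-term EMT cells and 4.01 in control cells. The levels of the nearest measured genes thus stayed below background on both sides of *Csn3*.

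When 20 genes on either side were taken, 30 genes were measured and *Amtn* rose as well. *Amtn* encodes amelotin, an enamel protein of the same family of secreted calcium-binding phosphoproteins as the caseins. It had log2 values of 7.07, 7.67 and 7.38 in long-term EMT cells, against 4.48, 4.25 and 4.44 in control cells. The groups did not overlap, and the control arrays were at about the background level. The log2 fold change of *Amtn* was 2.98 (limma adjusted p = 0.00144), with 1 of the 3 control arrays above background, and it passed in all 6 leave-one-out fits. *Ambn* and *Enam*, the enamel genes beside it, had means of 3.87 and 3.45 in long-term EMT cells and 3.93 and 3.29 in control cells and did not pass.

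**Figure D4:**
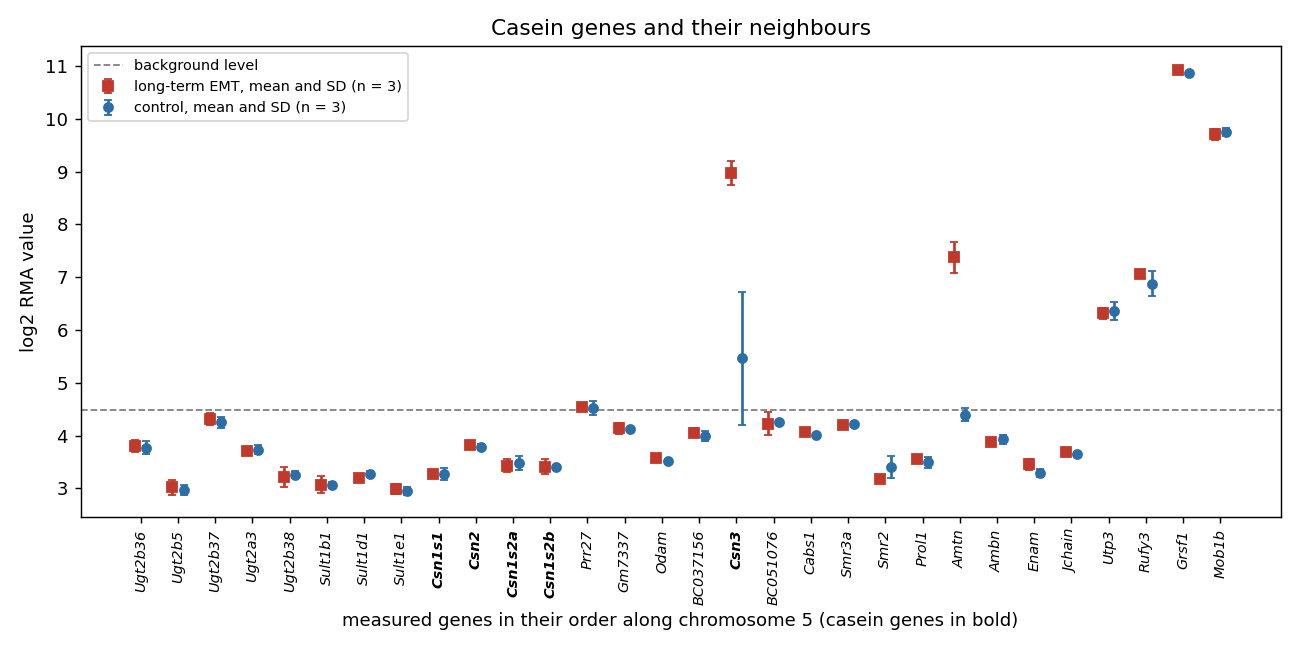
Mean and SD of the log2 RMA values in long-term EMT cells (squares, n = 3) and control cells (circles, n = 3) for 30 measured genes in their order along chromosome 5, with the casein genes in bold and the background level of 4.48 dashed. *Csn3* and *Amtn* are higher in long-term EMT cells, at 8.98 and 7.37, than in control cells, at 5.46 and 4.39, and the other caseins lie below the dashed line.

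The genes whose pattern over the 6 arrays was most like that of *Csn3* were *Fosb*, *Lgr6* and *Csgalnact1*, with Pearson r of 0.9985, 0.9966 and 0.9939 among 1242 genes that varied by an SD of at least 0.5. These correlations are a description over 6 arrays that share the group difference and the spread of the controls. *Fosb*, a transcription factor gene of the AP-1 family, had 7.94, 7.92 and 7.87 in long-term EMT cells, against 6.93, 6.52 and 5.93 in control cells. *Lgr6*, an R-spondin receptor gene, had 8.25, 8.28 and 8.26 in long-term EMT cells, against 7.39, 7.01 and 6.62 in control cells. Both rose, by 1.45 and 1.26 on the log2 scale (limma adjusted p = 0.0400 and 0.0300), and each passed in the leave-one-out fits without control replicate 1 or 3 but not in the other 4, where adjusted p lay between 0.142 and 0.168 for *Fosb* and between 0.117 and 0.139 for *Lgr6*. *Csgalnact1*, an enzyme gene of chondroitin sulfate synthesis, differed by 1.29 and did not pass (adjusted p = 0.0834). In all 3 genes, as in *Csn3*, control replicate 1 was the highest control array and control replicate 3 the lowest. This order, like the higher values in long-term EMT cells, follows from choosing the genes by likeness to *Csn3*, and is no separate result.

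The genes most like *Muc1*, chosen after its values were seen, were *Vnn3*, *Neurl3* and *Ltf*, with Pearson r of 0.9992, 0.9990 and 0.9986 over the 6 arrays. *Ltf* encodes lactoferrin, the iron-binding protein of milk. It had log2 values of 4.66, 4.51 and 4.49 in long-term EMT cells, against 10.85, 5.01 and 4.51 in control cells. Thus, control replicate 1 alone was far above the others, by 6.09 log2 units over the mean of the other controls. *Vnn3* reached 7.34 and *Neurl3* 10.01 on that array, and on the other 5 arrays they lay between 3.70 and 4.21 and between 4.92 and 5.55. None of the 3 genes passed, with limma adjusted p between 0.616 and 0.655. Their high value on control replicate 1 follows from choosing them by likeness to *Muc1*.

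Of 16 measured genes of lactogenic signaling, 0 rose, 1 fell and 15 did not pass, with a median log2 fold change of 0.06. Of all genes, 2.96% passed in either direction. *Jak2*, the kinase that is bound to the prolactin receptor, had log2 values of 10.35, 10.42 and 9.92 in long-term EMT cells, against 10.33, 9.57 and 8.77 in control cells, and the groups overlapped (limma adjusted p = 0.547). *Stat5a*, the main transcription factor of milk protein genes, had 7.60, 7.85 and 7.74 in long-term EMT cells, against 9.35, 8.44 and 8.21 in control cells. All long-term EMT arrays of *Stat5a* lay below the control arrays, but the difference of -0.94 did not pass (SE 0.29, limma adjusted p = 0.220), and without control replicate 1 it was -0.595 (adjusted p = 0.0691). *Stat5b* differed by -0.24 (adjusted p = 0.534), or by -0.10 without control replicate 1 (adjusted p = 0.655), and *Nr3c1*, the glucocorticoid receptor gene, by -0.44 (adjusted p = 0.0992). The gene that fell was *Cav1*, a caveolin that restrains Jak2 and Stat5 signaling in the mouse mammary gland. It fell by 0.84 on the log2 scale (SE 0.10, limma adjusted p = 0.0164) and passed in 3 of 6 leave-one-out fits, but not without control replicate 2 or long-term EMT replicates 1 or 3. Without control replicate 1, *Ghr*, the growth hormone receptor gene, passed as higher (log2 fold change 0.69, adjusted p = 0.0416, against 0.57 and 0.107 with all arrays). The prolactin receptor gene *Prlr* had no probe set with 1 symbol and was not analysed here.

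Among 17 measured transcription factors of the luminal and alveolar lineage, 0 rose, 3 fell and 14 did not pass, with a median log2 fold change of -0.24. Over all genes, 1.47% rose and 1.49% fell. *Id2*, which is needed for alveolar differentiation in the mouse, had log2 values of 7.62, 7.17 and 6.44 in long-term EMT cells, against 11.16, 11.16 and 11.25 in control cells. The groups were far apart, and *Id2* fell by 4.11 (SE 0.28, limma adjusted p = 0.00274) and passed in all 6 leave-one-out fits. *Gata3* and *Esr1*, luminal transcription factor genes, fell by 0.94 and 1.16 (SE 0.13 and 0.18, limma adjusted p = 0.0248 and 0.0308). Each of these 2 genes passed without control replicate 1 or 3 and in none of the other 4 leave-one-out fits, in which adjusted p lay between 0.0781 and 0.133. Without control replicate 1, *Bhlhe40*, a basic helix-loop-helix repressor gene, passed as higher (log2 fold change 0.80, adjusted p = 0.0333, against 0.68 and 0.0824 with all arrays). *Elf5*, the Ets factor that drives alveolar cells, lay close to the background level, at 4.55, 4.60 and 4.71 in long-term EMT cells, against 4.71, 4.58 and 4.68 in control cells. *Cebpb* had 8.87, 8.57 and 8.49 in long-term EMT cells, against 10.18, 9.32 and 9.13 in control cells, and its difference of -0.90 did not pass (adjusted p = 0.223), and without control replicate 1 it was -0.58 (adjusted p = 0.113). The Ets factor gene *Ehf* varied between controls. It had 3.96, 4.03 and 4.04 in long-term EMT cells, all under the background level, against 9.28, 6.43 and 4.55 in control cells. The difference in log2 signal was -2.74 and did not pass (adjusted p = 0.349), and without control replicate 1 it was -1.48 (adjusted p = 0.241).

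Of 14 other genes of milk and whey proteins, 0 rose, 1 fell and 13 did not pass (over all genes, 1.47% rose and 1.49% fell). Their median log2 fold change was -0.23. *Fgfbp1*, a secreted carrier of fibroblast growth factors, was the gene that fell. It had log2 values of 5.66, 6.70 and 6.42 in long-term EMT cells, against 8.90, 8.74 and 8.59 in control cells, a difference of -2.48 (SE 0.27, limma adjusted p = 0.00984). Without long-term EMT replicate 3 or control replicate 2 its adjusted p was 0.0512 and 0.0583, and without long-term EMT replicate 1 *Lcn2* passed as lower as well (adjusted p = 0.0450). Further, in 4 of the 14 genes control replicate 1 was more than 1 log2 unit above the mean of the other controls, against 3.09% of all genes. These 4 were *Ltf*, *Saa3*, *Pigr* and *Lcn2*. *Saa3*, an acute phase gene that is also used in the mammary gland, had 3.40, 3.48 and 3.54 in long-term EMT cells, against 6.58, 4.01 and 3.21 in control cells. *Pigr*, the receptor that moves immunoglobulin into milk, had 4.64, 4.67 and 4.62 in long-term EMT cells, against 6.14, 4.61 and 4.34 in control cells. *Wfdc18* and *Glycam1*, which the lactating mouse gland expresses, lay between 4.16 and 4.44 in long-term EMT cells and between 3.96 and 4.56 in control cells.

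Of 23 genes of the milk fat globule and of milk fat synthesis, 0 rose, 1 fell and 22 did not pass. Over all genes, 1.47% rose and 1.49% fell. The median log2 fold change of the 23 genes was -0.10. *Xdh*, whose xanthine oxidoreductase protein joins butyrophilin in the membrane that wraps milk fat, fell. It had log2 values of 8.25, 8.40 and 7.73 in long-term EMT cells, against 10.66, 9.83 and 9.60 in control cells, a difference of -1.90 (SE 0.31, limma adjusted p = 0.0374). The groups did not overlap. *Xdh* passed without control replicate 1 or 3, and in the 4 fits without another array its adjusted p lay between 0.122 and 0.138. *Btn1a1*, the butyrophilin gene, had 5.49, 4.83 and 4.99 in long-term EMT cells, against 5.66, 5.56 and 5.60 in control cells, and did not pass (adjusted p = 0.271). *Plin2*, which coats lipid droplets, lay between 12.32 and 12.44 in long-term EMT cells and between 12.27 and 12.56 in control cells. *Fasn*, the fatty acid synthase gene, had 10.50, 10.78 and 10.78 in long-term EMT cells, against 10.24, 10.91 and 10.74 in control cells, and the groups overlapped.

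Of 17 genes of lactose synthesis and milk transport, 0 rose, 1 fell and 16 did not pass (over all genes, 1.47% rose and 1.49% fell). Their median log2 fold change was -0.04. The water channel gene *Aqp5* had log2 values of 8.19, 8.41 and 8.38 in long-term EMT cells, against 9.04, 9.07 and 9.45 in control cells. *Aqp5* fell by 0.86 (SE 0.14, limma adjusted p = 0.0340) and passed in 2 of 6 leave-one-out fits, those without control replicate 1 or 3, with adjusted p between 0.108 and 0.128 in the others. *B4galt1*, the galactosyltransferase that α-lactalbumin turns to lactose synthesis, lay between 10.63 and 10.79 in long-term EMT cells and between 10.41 and 10.93 in control cells. *Atp2c2*, a calcium pump gene of the secretory pathway, had 4.81, 4.82 and 4.51 in long-term EMT cells, against 8.91, 6.93 and 6.63 in control cells. The groups of *Atp2c2* did not overlap, and the difference of -2.78 had a limma adjusted p of 0.0800, which was 0.00341 without control replicate 1. In that fit the sodium, potassium and chloride carrier gene *Slc12a2* passed as well (log2 fold change -0.68, adjusted p = 0.0491, against -0.91 and 0.103 with all arrays).

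**Figure D5:**
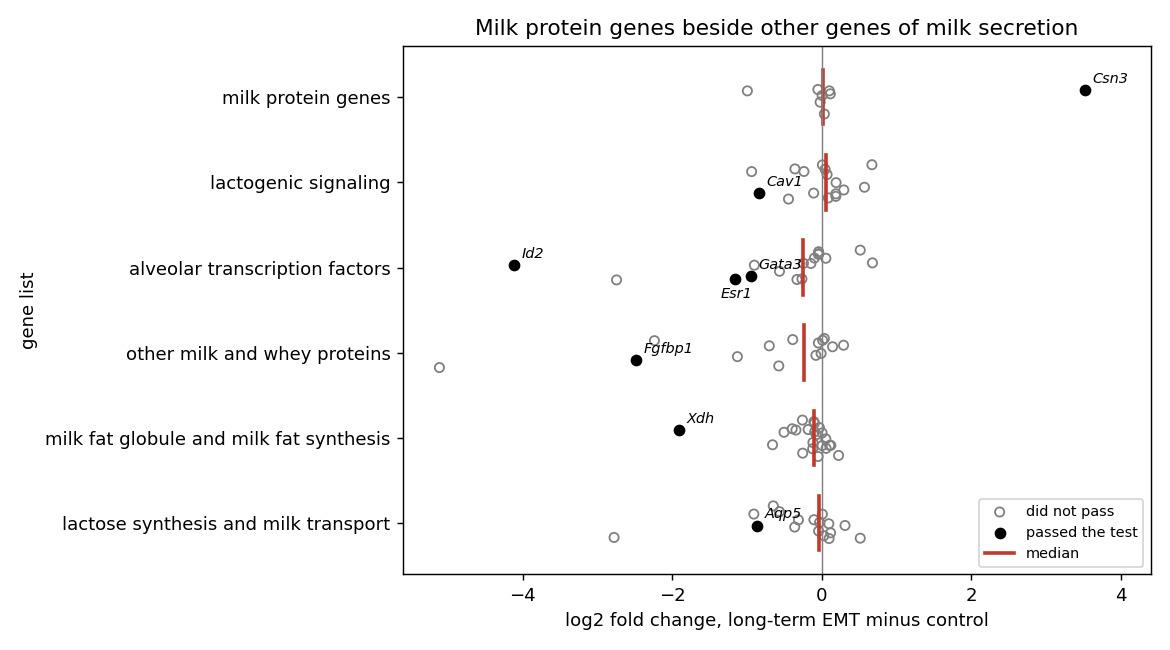
Log2 fold change, long-term EMT minus control, of the measured genes in 6 lists, with genes that passed the test filled and named, the others open, and the median of each list in red. *Csn3* at 3.52 is the 1 filled point to the right of 0, and the 7 named genes of the other lists lie to the left of it.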

How the data were processed

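The deposited log2 values were made by the authors with the Robust Multi-array Average (RMA) from MoGene-1_1-st-v1 arrays, 1 per sample, with Affymetrix Expression Console per the labels, its version not given in the sources used here. They were used as deposited, with 2 decimals, for 35556 probe sets. Array medians lay between 5.36 and 5.40. Of the probe sets, 21218 have 1 gene symbol in the platform annotation, 1881 several and 12457 none, and several-symbol probe sets named no gene. A gene was read from its probe set with the highest mean over the 6 arrays, and each milk protein gene had 1 probe set.

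Groups were taken from the sample titles, with 3 arrays each, whose number limits the precision. The comparison used a linear model with moderated variances (lmFit, eBayes; limma 3.58.1, R 4.3.3; two-sided; Benjamini-Hochberg adjustment over all probe sets). The fit was run on simulated data with the same spread in both groups. That simulation does not cover groups of unequal spread, such as those of *Csn3*. The methods' t-test, other variance priors, normalizations, thresholds and filters, a replicate block and leaving out each array were alternatives, and unadjusted limma p-values were added after the data were seen. The named genes are the 8 members, a fixed set of lactogenic regulators, up to 4 passing genes per list, the casein neighbours and the 3 genes most like a passing member, and further genes were picked as examples with their values known. The members and lists were chosen with earlier results of these data known.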

Additional observations from a re-analysis of the deposited data

How the results depend on the processing

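The rise of *Csn3* kept its direction under all alternatives run, with a log2 fold change between 2.88 and 4.14 when each array was left out. The other 7 milk protein genes did not pass under any alternative. The call of *Csn3* was lost, at an unchanged log2 fold change of 3.52, with the replicate number as a block (adjusted p = 0.0501) and with the methods' t-test after Benjamini-Hochberg adjustment (adjusted p = 0.215), so that 0 of 8 members passed in each. Over all 35556 probe sets, 256 passed as higher and 278 as lower with the block, against 353 and 330 without it. With the block, *Gata3*, *Aqp5*, *Fosb* and *Lgr6* did not pass either (adjusted p between 0.0546 and 0.0659), and *Lcn2* passed as lower (0.0359). Thus, 0 genes of lactose synthesis and transport and 2 of the other milk and whey proteins were lower. With 1 array left out, 0 to 1 members passed as higher, and all probe sets numbered 107 to 472 higher and 98 to 482 lower, against 353 and 330. These fits have fewer samples. The t-test gave 43 higher and 26 lower probe sets after adjustment and 638 and 688 without it, limma without adjustment gave 785 and 915, and a fold above 2 gave 194 higher. With 20 neighbours on either side of the casein genes, 2 of 30 measured genes rose, *Csn3* and *Amtn*, against 1.47% of all genes. The 99th percentile of the olfactory receptor probe sets was 5.09, against 4.48 at the 95th, and *Wap* and *Muc1* in long-term EMT cells lie between these. The same replicate numbers are not stated to mark shared wells, and the deviations of same-numbered arrays correlated at 0.19, 0.02 and 0.25. Signals near background limit what can be seen of *Csn1s1*, *Csn1s2a*, *Csn2* and *Lalba*.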

Other observations

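A few genes of the milk and marker lists varied within a group. *Lcn2* (lipocalin 2, an iron-sequestering defense protein also found in milk) had log2 values of 9.30, 5.98 and 4.84 in long-term EMT cells, against 12.84, 12.13 and 10.49 in control cells, and its difference of -5.11 did not pass (limma adjusted p = 0.112), although it did without long-term EMT replicate 1 (0.0450). *Krt19*, a keratin of luminal cells, had 7.07, 5.15 and 5.01 in long-term EMT cells, against 5.25, 5.07 and 4.98 in control cells. *Acta2*, the smooth muscle actin of myoepithelial cells, had 9.61, 9.73 and 9.81 in long-term EMT cells, against 6.22, 8.56 and 9.81 in control cells, and control replicate 1 was the lowest array.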
